A study of Mus musculus with 42 samples.

Results

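The matrix metalloproteases (MMPs), the ADAMTS proteases and the tissue inhibitors of metalloproteases (TIMPs) were followed in RNA of the mouse carotid intima, and the genes were taken by symbol alone (Mmp, Adamts or Timp with a number). Of the 21674 genes read, 46 had such a symbol, and these were 23 Mmp genes, 19 Adamts genes and 4 Timp genes. A mean of 1 CPM (counts scaled to the same library total) in at least 1 of 23 groups was reached by 34 of them (17 Mmp, 13 Adamts and 4 Timp genes), which are the members described here, and 14 reached it in every group of 2 or 3 libraries. A gene may reach it through a single group in which it is high, as Adamts16 did. Adamts16 was the member closest to this limit, with 1.21 CPM in its highest group, and Adamts17, with 0.776 CPM, was the closest below it. The 12 genes that did not reach it were Adamts8, Adamts13, Adamts17, Adamts18, Adamts19, Adamts20, Mmp1a, Mmp1b, Mmp7, Mmp10, Mmp20 and Mmp21.

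The study asked how arterial flow changes RNA in the intima, the endothelial lining of an artery. Partial ligation of the left carotid lowered its flow (low flow), the contralateral artery of the same mice carried more flow (high flow), and other mice had a sham operation without tied vessels (normal flow). Intimal RNA was flushed out with Trizol, and each library is a pool of 3 to 5 arterial flushes, so the p-values below measure the spread between pools. At 48 hr, untreated male C57BL/6J mice of 6 to 7 weeks gave 3 pools for each of the 3 flow states, sequenced with 100 bp reads. In mice of the same kind with 150 bp reads, platelets were depleted by the antibody anti-GPIba and macrophages by clodronate liposomes, given at ligation, and granulocytes by anti-Gr1, given 24 hr earlier, with IgG and PBS liposomes as controls. Each of these low-flow groups had 2 libraries, and so did high flow after IgG and high flow after PBS liposomes. At 7 days, low flow (3 libraries a genotype) and high flow (2 a genotype) were compared in Rbfox2 EC-KO mice, which are Rbfox2 lox/lox with the inducible Cre Cdh5(PAC)-CreERT2, and in Rbfox2 lox/lox littermates that lack the Cre (control), and all of them carried the reporter Rosa26-mTmG on a C57 background. These mice, of 2 to 7 months and of either sex, lose the splicing factor Rbfox2 only in cells that express the endothelial Cdh5 promoter, so other cells of the flush keep the gene. A further 9 libraries, with no replicate, came from low-flow arteries (100 bp reads), sorted aortic endothelial cells and the immortalized endothelial TetOn-SV40 line.

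Between 4064477 and 6794904 counts per library fell on genes in the 9 untreated pools, 12286104 to 19035957 in the 14 treated ones and 10318685 to 18633538 in the 10 at 7 days. Levels are given in FPKM, for which the deposited expected counts were scaled by effective gene length and by library total. Libraries of a group are named a, b and c and are always listed in that order. Low-flow pool c of the untreated set stood apart from pools a and b. At 7 days control low-flow library a stood apart across all genes (a chi-square per gene of 255 and 198 against libraries b and c, and of 64.6 between b and c), and library b in several members and in leukocyte markers. The untreated and the treated libraries differed in read length and in the level of several members, so their levels are not compared with each other.

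MMPs are zinc-dependent proteases that cut collagens, elastin and other matrix proteins, and most are made as inactive precursors. ADAMTS proteases are secreted relatives that cut proteoglycans such as versican, process procollagens or act on microfibrils, and TIMPs bind to the active site of these enzymes and block it. In arteries that remodel, MMPs are made by endothelial and smooth muscle cells and by leukocytes that enter the wall.

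The Mmp genes are not spread evenly over the genome. On chromosome 9 of NCBIM37 (the assembly of mm9), 10 Mmp genes lay within 427.1 kb, from 7272514 to 7699585, in the order Mmp13, Mmp12, Mmp1b, Mmp3, Mmp1a, Mmp10, Mmp8, Mmp27, Mmp20 and Mmp7. Of these, 5 are members described here (Mmp13, Mmp12, Mmp3, Mmp8 and Mmp27). Promoter sequences of RefSeq (GRCm38.p6, 250 bases before to 50 bases after each gene start) were matched by symbol for 22 of the 34 members, and they were searched on both strands for the motif TGAGTCA, the binding letters of AP-1, a factor known to act on several MMP promoters. It was present in 5.95% of the 27025 genes of the table. With the family genes below 1 CPM included, 32 were matched and 7 of them had it, and a link to expression was not tested. Among the 22 members it was present in 3 (13.6%), which were Mmp3, Mmp12 and Mmp13. Their windows of 30 bases, in GRCm38.p6 coordinates, are shown since Mmp12 and Mmp13 are among the members that rose at low flow, with the motif or its reverse complement TGACTCA in capitals.
Mmp13, chr9:7272468-7272497, plus strand, 35 bases before the start: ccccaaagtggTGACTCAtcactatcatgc
Mmp12, chr9:7347319-7347348, plus strand, 44 bases before the start: gacatcaacagTGAGTCAgatagaggattt
Mmp3, chr9:7445765-7445794, plus strand, 46 bases before the start: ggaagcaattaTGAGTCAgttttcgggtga
Such a match is a description of the letters and does not show that the factor was bound. The promoters of Adamts4, Adamts5, Adamts6, Adamts7, Adamts10, Adamts15, Adamts16, Mmp2, Mmp9, Mmp16, Mmp17 and Mmp19 were not analysed here.

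A few genes made up most of each family in most of the 35 artery libraries. Timp2 had a median level of 439.7 FPKM (range 8.36 to 1139.8) and Timp3 of 303 FPKM (47.3 to 739.7). Their order was not the same in all sets, and Timp3 was above Timp2 in each of the 9 untreated pools. Together Timp2 and Timp3 held 35.7% to 99.1% of the summed TIMP level. Timp1 was the highest TIMP in untreated low-flow pools a and b and in the single 100 bp low-flow libraries. Among the proteases, Mmp2, which is gelatinase A, had a median of 67.5 FPKM (22.5 to 112), and Mmp14, the membrane-bound MT1-MMP that activates the Mmp2 precursor, had 38.7 FPKM (5.07 to 321). Together Mmp2 and Mmp14 held 54.5% to 91.9% of the summed MMP level of a library. Adamts1, which cuts versican and aggrecan, had a median of 26.2 FPKM (4.78 to 88.4), and Adamts10, which acts on fibrillin microfibrils, had 19.7 FPKM (3.04 to 74.1). These 2 genes held 65.9% to 97.4% of the summed ADAMTS level. The order within these pairs varied too. Mmp14 was above Mmp2 in the low-flow libraries after IgG and PBS liposomes, and Adamts10 was above Adamts1 in the untreated high-flow and sham pools. At the other end, Mmp15, Mmp25, Adamts14 and Adamts16 had medians of 0.0254, 0.044, 0 and 0 FPKM and were listed at 0 in 15, 15, 18 and 29 of the 35 libraries.

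Between the untreated low-flow and high-flow pools at 48 hr, the collagenase Mmp8, the gelatinase Mmp9, the macrophage elastase Mmp12, Mmp14, the versican-cutting Adamts4 and Timp1 rose, whereas Timp2, Timp3, Timp4 and Adamts10 fell. Of the 34 members, 21 passed the filter on low counts, and edgeR called 13 of these (adjusted p under 0.05), of which 7 rose and 6 fell. This is 61.9% of the members tested, beside 46.2% of all 11236 genes tested (23.6% higher and 22.6% lower). The median log2 fold change was -0.20 over the members tested and -0.07 over all genes tested. The 3 low-flow pools did not overlap with the 3 high-flow pools in FPKM for 16 of the 21 members (76.2%), beside 51.6% of all genes tested. By family, 7 of 11 Mmp genes changed (5 higher, 2 lower), 2 of 6 Adamts genes (1 higher, 1 lower) and 4 of 4 Timp genes (1 higher, 3 lower). In bulk RNA such as this, fewer cells of a type and less RNA per cell cannot be told apart.

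The collagenase Mmp8 (chromosome 9, 7558429 to 7568486) had 10.3, 11.6 and 14.7 FPKM in the low-flow pools, 0.61, 1.56 and 0.191 at high flow and 0.411, 1.17 and 1.6 in sham arteries. Every low-flow pool was far above every other pool. Low against high flow gave a log2 fold change of 4.54 (SE, its standard error, 0.44, edgeR adjusted p = 1.79e-05). Mmp9, or gelatinase B (chromosome 2, 164766280 to 164781350), had 1.28, 4.75 and 4.57 FPKM at low flow against 0.0784, 0.164 and 0 at high flow. No high-flow pool had more than 3 counts of Mmp9, and the ratio of low to high flow was 36.7, with a counting interval of 95% from 14.1 to 136 that covers counting error only. That ratio was scaled by library totals. With its own scaling (TMM factors), edgeR gave a log2 fold change of 5.82 for Mmp9 (adjusted p = 0.000101). Mmp12 (chromosome 9, 7344381 to 7369499) had 2.97, 3.84 and 4.71 FPKM at low flow and 0, 0.19 and 1.34 at high flow, and its log2 fold change was 3.64 (SE 0.66, edgeR adjusted p = 0.00123). Without high-flow pool c the log2 fold change of Mmp12 was 5.7, and without high-flow pool b those of Mmp8 and Mmp9 were 5.59 and 6.82. Sham pool c, with 5.56 FPKM of Mmp12, lay above all low-flow pools, and the other sham pools had 1.1 and 1.28. An exon of Mmp12 shares 157 bases with one of Mmp1b on the opposite strand, and the RSEM options named in the methods include none for strand.

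Mmp14 (chromosome 14, 55050441 to 55060095) had 12.5, 10.7 and 20.5 FPKM at low flow and 5.07, 5.48 and 5.12 at high flow. The groups did not overlap, the high-flow pools differed little from each other, and low-flow pool c was the highest. Its log2 fold change was 2.13 (SE 0.18, edgeR adjusted p = 7.23e-06). Mmp2 is the enzyme whose precursor Mmp14 activates, and it did not pass the test, with 23.1, 22.5 and 40.2 FPKM at low flow, 39.2, 39 and 41.9 at high flow and an adjusted p of 0.436 by edgeR. The stromelysin Mmp11 was called higher (log2 fold change 1.00, SE 0.33, edgeR adjusted p = 0.0305), but its FPKM overlapped (1.12, 1.61 and 3.59 at low flow, 1.23, 1.48 and 1.99 at high flow). The call of Mmp11 was lost with library totals in place of TMM factors (log2 fold change 0.42, adjusted p = 0.583 by edgeR), with DESeq2 (adjusted p = 0.0736), and when low-flow pool b or c or high-flow pool a or b was left out (adjusted p = 0.0787, 0.114, 0.0723 and 0.107 by edgeR).

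The membrane-type proteases Mmp16 and Mmp24 fell. Mmp16 (chromosome 4, 17780040 to 18046292) had 0.432, 0.508 and 1.03 FPKM at low flow and 1.91, 1.52 and 2.68 at high flow (log2 fold change -1.01, SE 0.32, edgeR adjusted p = 0.0247). Mmp24 (chromosome 2, 155601078 to 155644102) had 0.637, 0.595 and 2.03 FPKM at low flow and 5.02, 4.03 and 2.07 at high flow (log2 fold change -1.21, SE 0.37, edgeR adjusted p = 0.0212). Low-flow pool c of Mmp24 lay just under high-flow pool c, whereas no pools of Mmp16 overlapped. The call of Mmp16 was lost without low-flow pool a or b or high-flow pool a or c (adjusted p = 0.0853, 0.0551, 0.0535 and 0.101 by edgeR). The call of Mmp16 was also lost with DESeq2 (adjusted p = 0.0721). That of Mmp24 was lost without low-flow pool a or b or high-flow pool a or b (0.0764, 0.0727, 0.0849 and 0.0554 by edgeR). An exon of Mmp24 shares 637 bases with the noncoding RNA BC029722 on the opposite strand. Mmp3 and Mmp19 did not pass the test (adjusted p = 0.801 and 0.884 by edgeR), and Mmp13 did not pass the filter, with 1.51, 0.356 and 2.22 FPKM at low flow and 0, 0 and 0.348 at high flow, although DESeq2 called it (adjusted p = 0.000136).

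**Figure D1:**
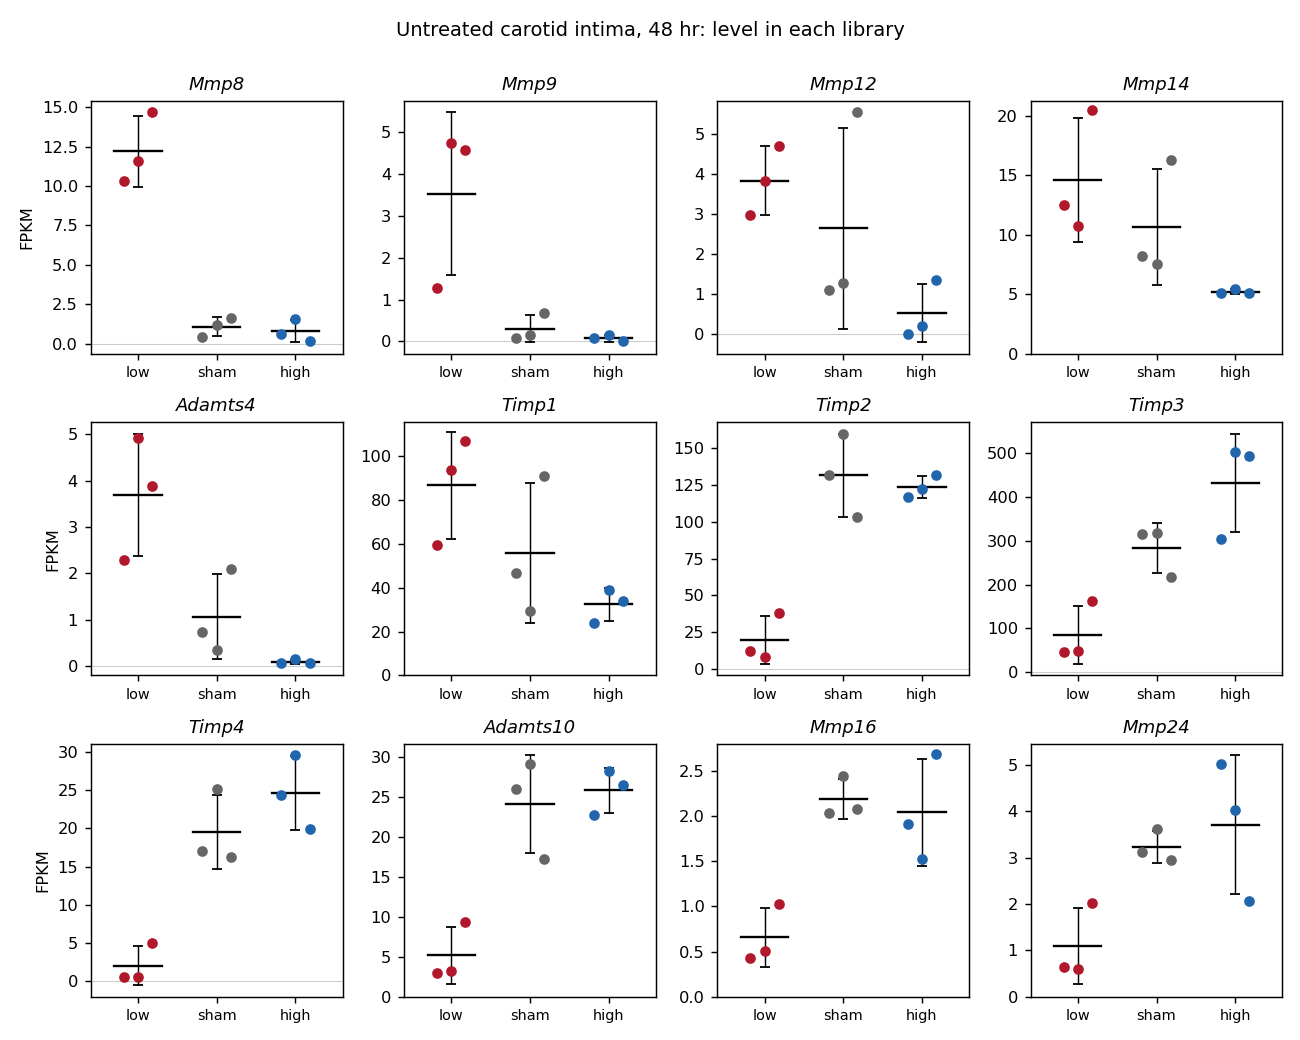
FPKM (linear axes) of the 12 members with the largest called changes without overlap between untreated low-flow and high-flow pools at 48 hr, with 1 point for each pool of low flow, sham and high flow, a line at the mean and a bar of 1 SD (n = 3). Mmp8, Mmp9 and Adamts4 have all 3 low-flow pools above the high-flow pools, Timp4 and Adamts10 have all 3 below them, and low-flow pool c is nearest to high flow for Timp2, Timp3 and Timp4.

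Adamts4 (chromosome 1, 173180552 to 173190768) had 2.29, 4.91 and 3.88 FPKM at low flow, 0.0665, 0.14 and 0.0624 at high flow and 0.739, 0.349 and 2.09 in sham arteries. All low-flow pools were above all others, and sham pool c came closest. With at most 3 counts per high-flow pool, the ratio of low to high flow for Adamts4 by library totals was 36.9 (counting interval of 95% from 15.6 to 115). With TMM factors, edgeR gave a log2 fold change of 5.9 (adjusted p = 1.79e-05). In the other direction, Adamts10 (chromosome 17, 33661149 to 33690727) had 3.04, 3.2 and 9.3 FPKM at low flow against 22.7, 28.3 and 26.5 at high flow and 26, 29.1 and 17.3 in sham arteries. The low-flow pools of Adamts10 were the 3 lowest of the 9 (log2 fold change -1.76, SE 0.20, edgeR adjusted p = 6.22e-05). Adamts1 did not pass the test, with 4.78, 7.55 and 8.48 FPKM at low flow and 8.61, 15.1 and 11.1 at high flow (adjusted p = 0.916 by edgeR). The procollagen processing Adamts2 and Adamts3 and the versican-cutting Adamts5 were just outside the threshold, with adjusted p of 0.0526, 0.0532 and 0.0543 by edgeR and log2 fold changes of -1.62, -1.18 and -1.07.

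The 4 TIMPs did not move together. Timp1 (chromosome X, 20447292 to 20451861) had 59.4, 93.9 and 107 FPKM at low flow, 24, 39.1 and 34.1 at high flow and 46.9, 29.5 and 91.2 in sham arteries, where pool c overlapped with low flow. It rose by 2.13 on the log2 scale (SE 0.26, edgeR adjusted p = 8.78e-05). Timp2 (chromosome 11, 118162383 to 118217054), which also takes part in the activation of the Mmp2 precursor by Mmp14, had 12.4, 8.36 and 38.2 FPKM at low flow and 117, 122 and 132 at high flow. Its log2 fold change was -2.17 (SE 0.29, edgeR adjusted p = 0.000187). Timp3 (chromosome 10, 85763117 to 85812251), the TIMP that binds to matrix and also inhibits Adamts4 and Adamts5, had 47.3, 47.6 and 162 FPKM at low flow and 303, 501 and 492 at high flow. Its log2 fold change was -1.83 (SE 0.37, edgeR adjusted p = 0.00233). Timp4 (chromosome 6, 115195634 to 115201867) had 0.578, 0.531 and 4.97 FPKM at low flow and 24.4, 29.6 and 19.9 at high flow, with a log2 fold change of -3.08 (SE 0.43, edgeR adjusted p = 0.000208). For the 3 TIMPs that fell, no pools overlapped and low-flow pool c was the highest of its group. Without that pool the log2 fold changes were -2.52 for Timp2, -2.12 for Timp3 and -4.38 for Timp4, and all 3 passed the test. Timp1, Timp3 and Timp4 each lie within a synapsin gene (Syn1, Syn3 and Syn2) on the opposite strand, and Timp3 shares up to 1733 exonic bases with Syn3, so reads of the pair may not be told apart.

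With these changes the make-up of the TIMP family differed between flow states. Timp1 was 49.7%, 62.4% and 34.4% of the summed TIMP level in the low-flow pools, 5.13%, 5.65% and 5.02% at high flow and 9.17%, 5.54% and 21.3% in sham arteries. The summed MMP level divided by the summed TIMP level was 0.484, 0.406 and 0.357 at low flow, 0.136, 0.103 and 0.103 at high flow and 0.155, 0.16 and 0.222 in sham arteries. For both quantities the low-flow pools were the 3 highest of the 9, and sham pool c was next. These ratios of mRNA levels were not tested and say nothing of enzyme activity.

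**Figure D2:**
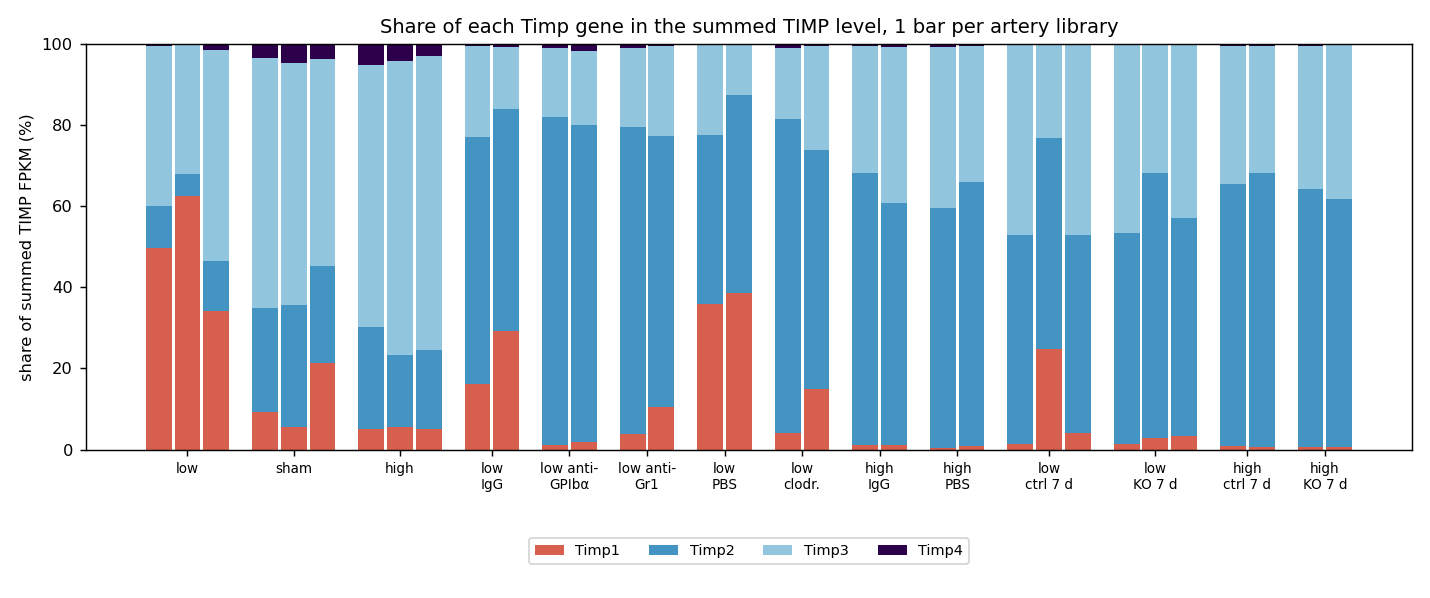
Share of each TIMP in the summed TIMP level (percent of FPKM), 1 bar for each artery library in replicated groups, by flow state, treatment and genotype. Timp1 holds 34.4% to 62.4% in untreated low-flow pools, 5.02% to 5.65% at high flow, 16.1% to 29.2% at low flow after IgG and 0.997% to 1.77% after anti-GPIba.

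Scaling moved the size of these changes, and leukocyte markers moved with them. The TMM factors of low-flow pools a and b (0.632 and 0.607) differed from those of pool c (1.24) and of the high-flow pools (1.23 to 1.31), and they moved the median of all genes by 0.62 (log2) against scaling by library totals. With totals, 25.3% of the calls among all genes were higher at low flow in place of 51.0%, and among the members 6 were higher and 10 lower in place of 7 and 6, with no member called in the opposite direction. Without low-flow pool c, 16 members and 47.8% of all genes were called, and 12 of the 16 were among the 13. Genes of macrophages, a list of 14, summed to 0.227% to 0.338% of counts at low flow and 0.00655% to 0.0154% at high flow, and 12 of the 13 tested rose, with no list gene at 0 in a low-flow pool. Neutrophil genes, a list of 10, summed to 0.0237% to 0.0492% against 0.000962% to 0.00133%, and 7 of 7 tested rose, although Mpo was listed at 0 in every low-flow pool. Endothelial genes, a list of 11, were 0.442% to 0.582% of counts at low flow and 0.988% to 1.16% at high flow, with 2 higher and 5 lower by edgeR. Smooth muscle genes, a list of 8, summed to 0.233% to 0.431% against 0.0527% to 0.0622%, a sum led by Acta2, and of 6 tested 3 rose (Acta2, Tagln and Smtn) while the other 3 had negative log2 fold changes outside the threshold. Fibroblast and adventitia genes, also 8, were at 0.0268% to 0.0815% against 0.325% to 0.359%, with 4 of 8 lower. Fat cell genes, a list of 7, were at 0.00393% to 0.0075% at low flow against 0.0331% to 0.327% at high flow, and 5 of 5 tested fell. The part of these cell types in the change of any member was not tested.

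Against sham arteries, low flow changed the level of 13 of 23 members tested (56.5%, beside 40.3% of all genes tested, of which 20.6% higher and 19.7% lower), 6 higher (Mmp8, Mmp9, Adamts4, Mmp13, Timp1 and Mmp14) and 7 lower (Timp4, Timp2, Adamts3, Adamts10, Timp3, Mmp16 and Mmp24). The log2 fold changes of the members that rose were 4.23 (Mmp8, SE 0.38, edgeR adjusted p = 0.000974), 4.08 (Mmp9), 2.5 (Adamts4), 1.66 (Mmp13), 1.37 (Timp1) and 1.13 (Mmp14). Mmp13 overlapped in FPKM (1.51, 0.356 and 2.22 at low flow, 0.469, 0.875 and 0.729 in sham arteries, edgeR adjusted p = 0.026). Those of the members that fell ran from -2.71 (Timp4, SE 0.46, edgeR adjusted p = 0.0037) to -0.96 (Mmp24). Adamts3 had 0.099, 0.0606 and 0.401 FPKM at low flow and 1.05, 1.06 and 0.606 in sham arteries, with no overlap (log2 fold change -1.63, SE 0.43, edgeR adjusted p = 0.0176). Mmp12 was not called here, and 3 of these calls (Mmp13, Mmp14 and Timp1) were lost with library totals as the scale. The count was 7 without low-flow pool a (24.5% of all genes), 8 without low-flow pool b (23.8%), 7 without sham pool a (21.9%) and 16 without low-flow pool c (41.8%). Both comparisons share the low-flow pools. High flow against sham gave 0 of 20 members tested and 0 of 11030 genes by edgeR, beside 3 members (Mmp12, Mmp14 and Timp3) and 7.87% of all genes at an unadjusted p under 0.05, and 0 members and 0.832% of all genes by DESeq2. When sham pool b was left out, Adamts4 was called (beside 0.690% of all genes), with 0.0665, 0.14 and 0.0624 FPKM at high flow.

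Related genes of matrix breakdown were taken as lists. Their calls are to be read beside the 46.2% of all genes called between untreated low and high flow (23.6% higher and 22.6% lower). Of 7 ADAM proteases tested between low and high flow, Adam8, Adam12, Adam19 and Adam9 rose and Adam15 fell. Among genes of plasminogen activation, the pathway that activates several MMPs, Plau and Plaur rose, with Plaur (the urokinase receptor) at 405 ± 132 FPKM (SD, n = 3) against 128 ± 21 (SD, n = 3). Among 7 cysteine cathepsins, Ctss and Ctsc rose, and Ctss, the cathepsin S of antigen-presenting cells, was at 377 ± 41.9 FPKM (SD, n = 3) against 10.7 ± 8.59 (SD, n = 3). The 3 ADAMTS-like genes tested, which encode relatives without a protease domain, all fell (Adamtsl3, Adamtsl4 and Adamtsl5). Of 9 other inhibitors and activators, Thbs1 rose, and Spock2, the proprotein convertase Pcsk5 and Reck fell. Reck, a membrane-bound inhibitor of MMPs, was at 1.66 ± 1.52 FPKM (SD, n = 3) against 10.3 ± 2.11 (SD, n = 3). Of 4 genes on the list of substrates, that of the proteoglycan versican, Vcan, rose (1.55 ± 0.33 against 0.48 ± 0.17 FPKM, SD, n = 3), and Eln (elastin, cut by MMPs) and Vwf fell.

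In the control libraries of the depletion experiments the flow change was measured again, with 2 libraries a group. After IgG, 14 of 32 members tested were called (8 higher, 6 lower), 43.8% beside 40.5% of all genes (22.8% higher, 17.7% lower), and after PBS liposomes 12 of 32 (6 higher, 6 lower), 37.5% beside 35.0% (19.6% higher, 15.5% lower). Called in the same direction as in the untreated pools, in both sets, were Mmp12, Mmp14 and Timp1 (higher) and Adamts10, Timp2 and Timp3 (lower). The share of all genes called in this way was not computed, so the list does not set the members apart from other genes. Within the treated set the low-flow and high-flow libraries carried different dates in the column headers, so flow and sequencing date cannot be told apart there, whereas the untreated pools carried a single date. The macrophage list summed to 0.222% to 0.246% of counts at low and 0.00645% to 0.0253% at high flow after IgG. After PBS liposomes it was at 0.132% to 0.225% against 0.0103% to 0.0195%. After IgG the endothelial list was at 0.565% to 0.697% against 2.0% to 2.04%, although Emcn and Kdr were called higher. The part of these lists was not tested.

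Mmp14 had 128 and 224 FPKM at low flow after IgG and 46.8 and 31.1 at high flow, and after PBS liposomes 109 and 216 against 38.5 and 66.2. The low-flow libraries were above the high-flow ones in both sets, and the log2 fold changes were 2.10 (SE 0.51, edgeR adjusted p = 0.00816) and 1.74 (SE 0.50, edgeR adjusted p = 0.0197). Timp1 had 116 and 155 FPKM at low flow after IgG against 16.3 and 18.1, and 247 and 178 after PBS liposomes against 7.97 and 14 (log2 fold changes 2.89 and 4.38, adjusted p = 0.00182 and 0.000351 by edgeR). Timp2 had 439.7 and 291 FPKM at low flow after IgG against 1046 and 1078, and 286 and 226 after PBS liposomes against 1051 and 968. The groups of Timp2 were well apart (log2 fold changes -1.63 and -1.87, adjusted p = 0.00556 and 0.00327 by edgeR). Timp3 had 161 and 81.3 FPKM against 485 and 698 after IgG, and 152 and 57.3 against 705 and 501 after PBS liposomes (log2 fold changes -2.38 and -2.42). Adamts10 had 12.3 and 5.95 FPKM against 73.3 and 70.2 after IgG, and 6.14 and 4.71 against 44.9 and 30.1 after PBS liposomes, with log2 fold changes of -3.06 and -2.68 (adjusted p = 0.000915 and 0.0013 by edgeR).

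**Figure D3:**
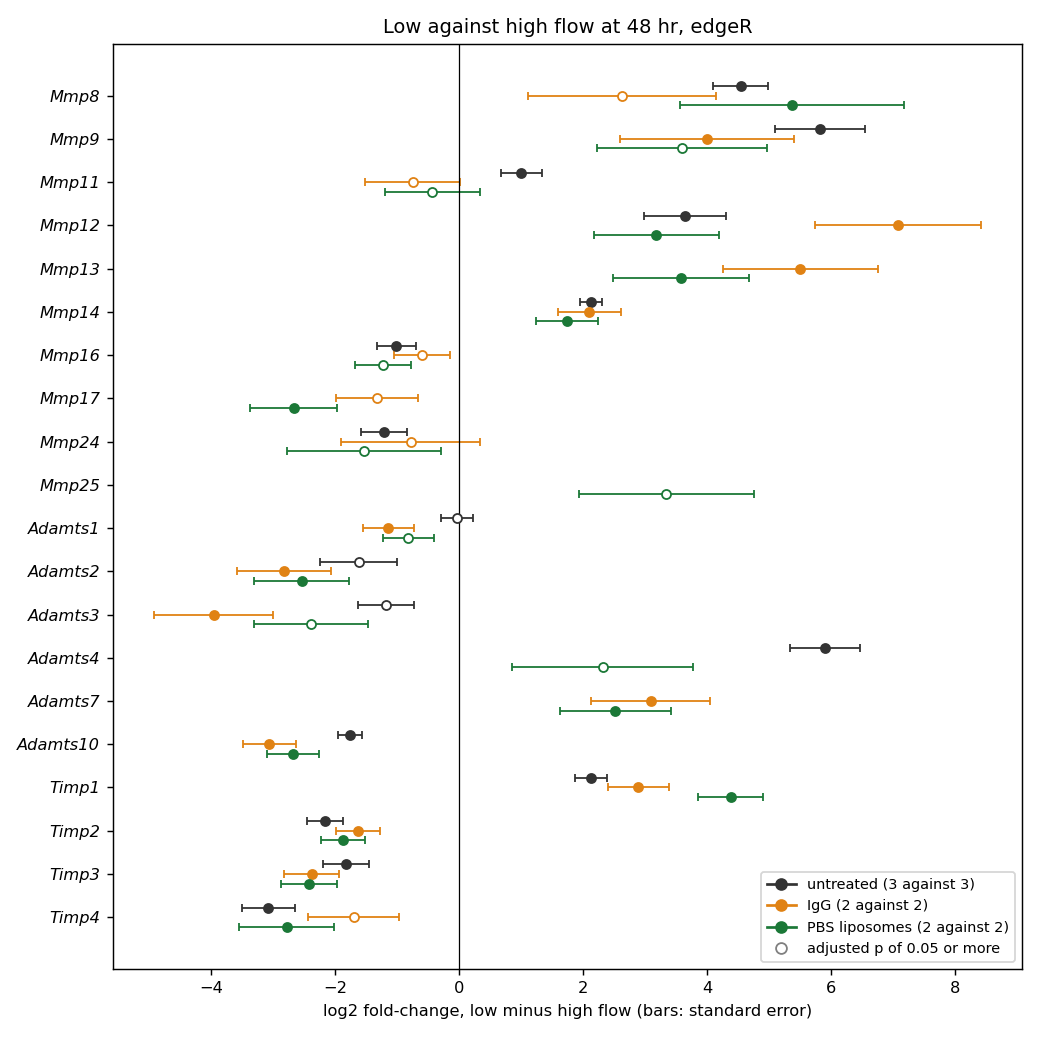
Fitted log2 fold change of low against high flow at 48 hr with its standard error, for the 20 members called in at least 1 comparison, in untreated, IgG and PBS liposome libraries. Filled points have an adjusted p under 0.05 by edgeR, such as Mmp14 (2.13, 2.10 and 1.74) and Timp2 (-2.17, -1.63 and -1.87) in all 3 sets, and members that did not pass the filter or had a group with all libraries at 0 are not drawn for that set.

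Mmp12 had 8.94 and 4.46 FPKM at low flow after IgG against 0 and 0.0849 (log2 fold change 7.08, adjusted p = 0.00293 by edgeR), and 2.91 and 8.31 after PBS liposomes against 0.292 and 1.05 (3.18, adjusted p = 0.0307 by edgeR). Its neighbour Mmp13 had 1.9 and 1.31 FPKM against 0 and 0.0581 after IgG, where the ratio was 51.8 (counting interval of 95% from 14.1 to 432), and 1.24 and 0.377 against 0.0285 and 0.112 after PBS liposomes. Adamts4 was listed at 0 in both high-flow libraries after IgG and at 6.79 and 7.04 FPKM at low flow, which is at least 105-fold higher against a floor of 3 counts per library. After PBS liposomes its high-flow libraries differed (0 and 3.44 FPKM, against 4.19 and 11.6 at low flow), and it was not called. Mmp25, a membrane-anchored protease known from leukocytes, was also at 0 in both IgG high-flow libraries and at least 6.46-fold higher at low flow (0.62 and 0.309 FPKM). Mmp9 was called after IgG (19.1 and 6.72 FPKM against 0 and 1.47, log2 fold change 4.0, adjusted p = 0.0403 by edgeR) and not after PBS liposomes (4.86 and 14.7 against 0.795 and 0.948). Mmp8 was called after PBS liposomes (5.3 and 11.5 FPKM against 0.156 and 0.277, log2 fold change 5.37, adjusted p = 0.0392 by edgeR) and not after IgG (12.4 and 12.3 against 0 and 3.66).

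Adamts7 rose in both sets, with 0.233 and 0.465 FPKM against 0.0626 and 0.0141 after IgG (log2 fold change 3.09, adjusted p = 0.0247 by edgeR) and 0.24 and 0.583 against 0.0971 and 0.0546 after PBS liposomes (2.52, adjusted p = 0.0476 by edgeR). It shares 122 exonic bases with Tbc1d2b on the opposite strand. The procollagen protease Adamts2 fell in both, from 5.77 and 5.23 FPKM at high flow to 1.01 and 0.643 at low flow after IgG, and from 2.77 and 2.17 to 0.38 and 0.406 after PBS liposomes (log2 fold changes -2.82 and -2.54, adjusted p = 0.0136 and 0.0256 by edgeR). Also called after IgG and not after PBS liposomes were Adamts3 (1.62 and 0.356 FPKM at high flow, 0.0898 and 0.0424 at low flow) and Adamts1 (46.4 and 69 against 27.3 and 28.5), and after PBS liposomes and not after IgG Timp4 (14.8 and 7.42 at high flow, 2.43 and 0.574 at low flow) and Mmp17 (1.6 and 1.25 against 0.178 and 0.235). Whether these members differ between the controls was not tested. The number of calls after IgG was 7 without low-flow library b (15.3% of all genes), and after PBS liposomes it was 4 without high-flow library a (10.7%), 7 without low-flow library a (20.9%) and 6 without low-flow library b (15.6%).

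Depletion of platelets with anti-GPIba, compared with IgG at low flow, moved 5 of 32 members tested, against the direction of the flow change in each case. Timp1, Mmp14, Mmp9 and Adamts4 fell and Timp2 rose. This is 15.6% of the members tested beside 16.5% of all 13401 genes (6.05% higher and 10.5% lower), so the share of members called was close to that of all genes. An unadjusted p under 0.05 was seen for 13 members and 36.7% of all genes. The comparison shares its IgG low-flow libraries with the IgG flow comparison, so a low or high value in them enters both.

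Timp1 had 14 and 21.7 FPKM after anti-GPIba and 116 and 155 after IgG. The libraries of the 2 groups were far apart, and those of high flow after IgG had 16.3 and 18.1 (log2 fold change between anti-GPIba and IgG -2.96, SE 0.49, edgeR adjusted p = 0.0143). Mmp14 had 46.1 and 36.1 FPKM after anti-GPIba and 128 and 224 after IgG (log2 fold change -2.13, SE 0.51, edgeR adjusted p = 0.0283). Timp2 had 1139.8 and 958 FPKM after anti-GPIba and 439.7 and 291 after IgG (log2 fold change 1.49, SE 0.36, edgeR adjusted p = 0.0288). Mmp9 was at 0.0189 and 0.739 FPKM against 19.1 and 6.72, and Adamts4 at 0.112 and 0.0157 against 6.79 and 7.04, with log2 fold changes of -5.10 and -6.74 and an adjusted p of 0.0405 by edgeR for each. Adamts10 and Timp4 were just outside the threshold, with 25.9 and 19.6 FPKM of Adamts10 against 12.3 and 5.95 (adjusted p = 0.0501 by edgeR) and 15.4 and 20.5 FPKM of Timp4 against 3.58 and 3.43 (adjusted p = 0.0521 by edgeR). Mmp2 had 85.1 and 60.4 FPKM after anti-GPIba and 86.9 and 109.8 after IgG (adjusted p = 0.196 by edgeR).

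The count of calls in this comparison depended on single libraries. It was 1 (Timp1) without IgG library a (0.597% of all genes) and 0 without IgG library b (0.638%) or either anti-GPIba library (0.108% and 0.00719%), and it was 9 with DESeq2 (26.6% of all genes) and 12 when the 2 groups alone were fitted (34.5% of all genes). Markers of other cells moved at the same time. The macrophage list summed to 0.0188% to 0.027% of counts after anti-GPIba and to 0.222% to 0.246% after IgG, with 10 of 14 genes lower by edgeR and none higher, and none at 0 in the anti-GPIba libraries. Of the 7 platelet genes listed, which summed to 0.00228% to 0.00286% of counts after anti-GPIba and 0.00342% to 0.00384% after IgG, Ppbp was called lower and Gp1ba higher. The neutrophil list summed to 0.000952% to 0.00194% against 0.0107% to 0.0327%, with 6 of 9 lower, and Elane was listed at 0 in both anti-GPIba libraries. The smooth muscle list was at 0.0724% to 0.102% against 0.437% to 0.472%, with 2 of 8 genes lower (Acta2 and Tagln) and 3 of the other 6 with positive log2 fold changes. The endothelial list was higher in share (1.2% to 1.22% against 0.565% to 0.697%, with 2 of 11 called higher), and so was the fibroblast and adventitia list (0.121% to 0.192% against 0.048% to 0.0902%, with Dcn called higher). Their part in the changes of the members was not tested. From the lists of matrix breakdown, Serpinb2, Plaur, Adam8, Adam12, Adam19, Ctss, Ctsc and Vcan fell after anti-GPIba, and Adam15, Pcsk5 and Reck rose, the last at 36.6 ± 10.5 FPKM against 14.6 ± 5.38 (SD, n = 2).

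**Figure D4:**
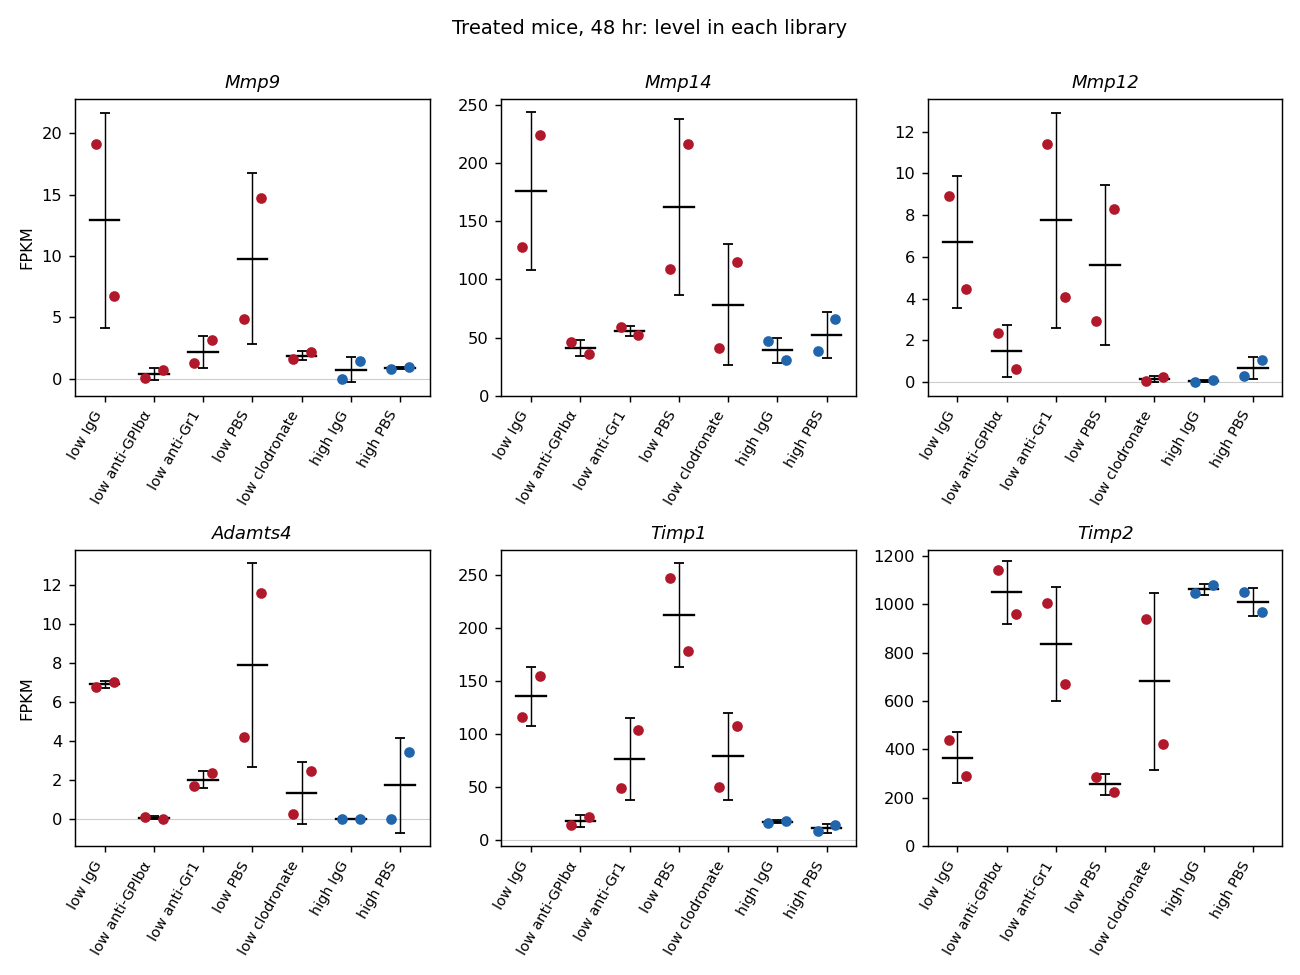
FPKM (linear axes) of 6 members in each library of the 7 treated groups at 48 hr, with low flow in red, high flow in blue, a line at the mean and a bar of 1 SD (n = 2). After anti-GPIba, Timp1 (14 and 21.7 FPKM) is near its high-flow level after IgG (16.3 and 18.1), and Timp2 (1139.8 and 958) is above its low-flow level after IgG (439.7 and 291).

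Depletion of granulocytes with anti-Gr1 and of macrophages with clodronate liposomes gave no call among the members by edgeR. For anti-Gr1 against IgG this was 0 of 32 members and 0 of all genes tested (0%), with 5 members and 18.1% of all genes at an unadjusted p under 0.05, and 1 member (Timp2) and 1.24% of all genes by DESeq2. Mmp14 had 58.9 and 52.4 FPKM after anti-Gr1 against 128 and 224, Timp1 49.4 and 104 against 116 and 155, and Timp2 1004 and 669 against 439.7 and 291. Mmp8, known from neutrophils, had 0.0736 and 2.42 FPKM after anti-Gr1 against 12.4 and 12.3 (adjusted p = 0.293 by edgeR). In contrast to these values, Mmp13 had 4.75 and 3.14 FPKM after anti-Gr1 and 1.9 and 1.31 after IgG. The neutrophil list was at 0.00213% to 0.00335% of counts after anti-Gr1 and the macrophage list at 0.109% to 0.125%.

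For clodronate against PBS liposomes there were 0 of 32 members, beside 0.119% of all genes (16 of 13401), 8 members and 14.9% of all genes at an unadjusted p under 0.05, and 5 members (Adamts10, Mmp12, Timp1, Timp2 and Timp4) and 3.65% of all genes by DESeq2. The macrophage elastase Mmp12 had 0.0193 and 0.219 FPKM after clodronate and 2.91 and 8.31 after PBS liposomes, with no overlap (log2 fold change -5.63, SE 1.19, edgeR adjusted p = 0.1). Timp1 had 50 and 108 FPKM against 247 and 178, and Timp2 had 939 and 423 against 286 and 226. Clodronate library b was nearer to the PBS libraries than library a for both, and for Mmp14 (41.4 and 115 FPKM against 109 and 216) it overlapped with them. Without clodronate library b, 7 members and 6.69% of all genes were called. The macrophage list was at 0.0221% to 0.0226% of counts after clodronate and at 0.132% to 0.225% after PBS liposomes, and the neutrophil list at 0.00409% to 0.00424% and 0.0106% to 0.0303%. The single 100 bp libraries had 2.82 FPKM of Mmp12 after PBS liposomes and 0 after clodronate, 6.46 and 0.864 FPKM of Adamts4, 56.6 and 25.6 of Mmp14, and 230.3 and 183 of Timp1.

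The antibodies anti-GPIba and anti-Gr1 were also compared with each other, since each shares the IgG control. By edgeR 0 of 32 members and 0 of all genes were called, with 5 members and 10.5% of all genes at an unadjusted p under 0.05, and 2 members (Mmp13 and Timp1) and 2.57% of all genes by DESeq2. Timp1 had 14 and 21.7 FPKM after anti-GPIba and 49.4 and 104 after anti-Gr1 (log2 fold change -2.17, SE 0.48, edgeR adjusted p = 0.123). Mmp13 had 0.761 and 0.109 FPKM after anti-GPIba against 4.75 and 3.14 (adjusted p = 0.257 by edgeR). Timp1 was also called with no filter on low counts, beside 0.456% of all genes. The edgeR test as described established no difference between the depletions, and the calls of Mmp13 and Timp1 depended on the tool and the setting.

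At 7 days Mmp12 was called higher at low flow in both genotypes, its neighbour Mmp13 in EC-KO mice and Adamts10 lower in control mice. In control mice 2 of 30 members tested were called between low and high flow (6.67% beside 2.40% of all 13352 genes, of which 0.959% higher and 1.44% lower), Mmp12 higher and Adamts10 lower. An unadjusted p under 0.05 was seen for 9 members and 25.0% of all genes, and DESeq2 called 8 members and 15.9% of all genes. In EC-KO mice 2 of 30 were called (6.67% beside 1.09%), Mmp13 and Mmp12, both higher, as were 0.352% of all genes, with 4 members and 15.7% of all genes at an unadjusted p under 0.05, and 4 members and 7.20% of all genes by DESeq2. Rbfox2 itself had 3.27, 5.73 and 2.74 FPKM at low flow and 3.66 and 3.84 at high flow in controls, and 1.09, 0.169 and 0.622 at low flow and 0.791 and 1.05 at high flow in EC-KO mice. It was lower in every EC-KO library, although the test across all genes gave an adjusted p of 0.692 at low flow by edgeR (log2 fold change -2.61, SE 0.58).

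Mmp12 had 7.45, 30.2 and 2.57 FPKM at low flow in controls and 0.275 and 0 at high flow (log2 fold change 6.40, SE 1.34, edgeR adjusted p = 0.043). In EC-KO mice it had 26.3, 23.1 and 18.3 FPKM at low flow and 0 and 0.0643 at high flow (log2 fold change 9.27, SE 1.58, edgeR adjusted p = 0.0265). The low-flow libraries of both genotypes were all above the high-flow ones, and those of EC-KO mice were closer to each other. Mmp13, or collagenase 3, had 12.8, 14.8 and 6.49 FPKM at low flow in EC-KO mice and was listed at 0 in both high-flow libraries, which is at least 161-fold higher (adjusted p = 0.0394 by edgeR). In controls it had 2.41, 5.46 and 0.268 FPKM at low flow and again 0 and 0 at high flow, and it was just outside the threshold (adjusted p = 0.0521 by edgeR). Adamts10 had 27.7, 8.24 and 11.6 FPKM at low flow and 61.3 and 74.1 at high flow in controls (log2 fold change -2.19, SE 0.40, edgeR adjusted p = 0.0325), and 20.3, 18.5 and 18 against 70.9 and 61.7 in EC-KO mice (adjusted p = 0.0669 by edgeR). None of the libraries of Adamts10 overlapped between flow states in either genotype. The macrophage list moved with flow at 7 days, with 0.0345% to 0.17% of counts at low and 0.00505% to 0.0125% at high flow in controls. In EC-KO mice it was at 0.0781% to 0.164% against 0.00752% to 0.00912%. The smooth muscle list summed to 0.129% to 0.177% against 0.0296% to 0.0392% in controls and 0.11% to 0.168% against 0.0275% to 0.0325% in EC-KO mice. The endothelial list was at 0.631% to 1.22% against 1.76% to 1.83% and at 0.879% to 1.07% against 1.88% to 1.96%. The part of these lists was not tested.

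**Figure D5:**
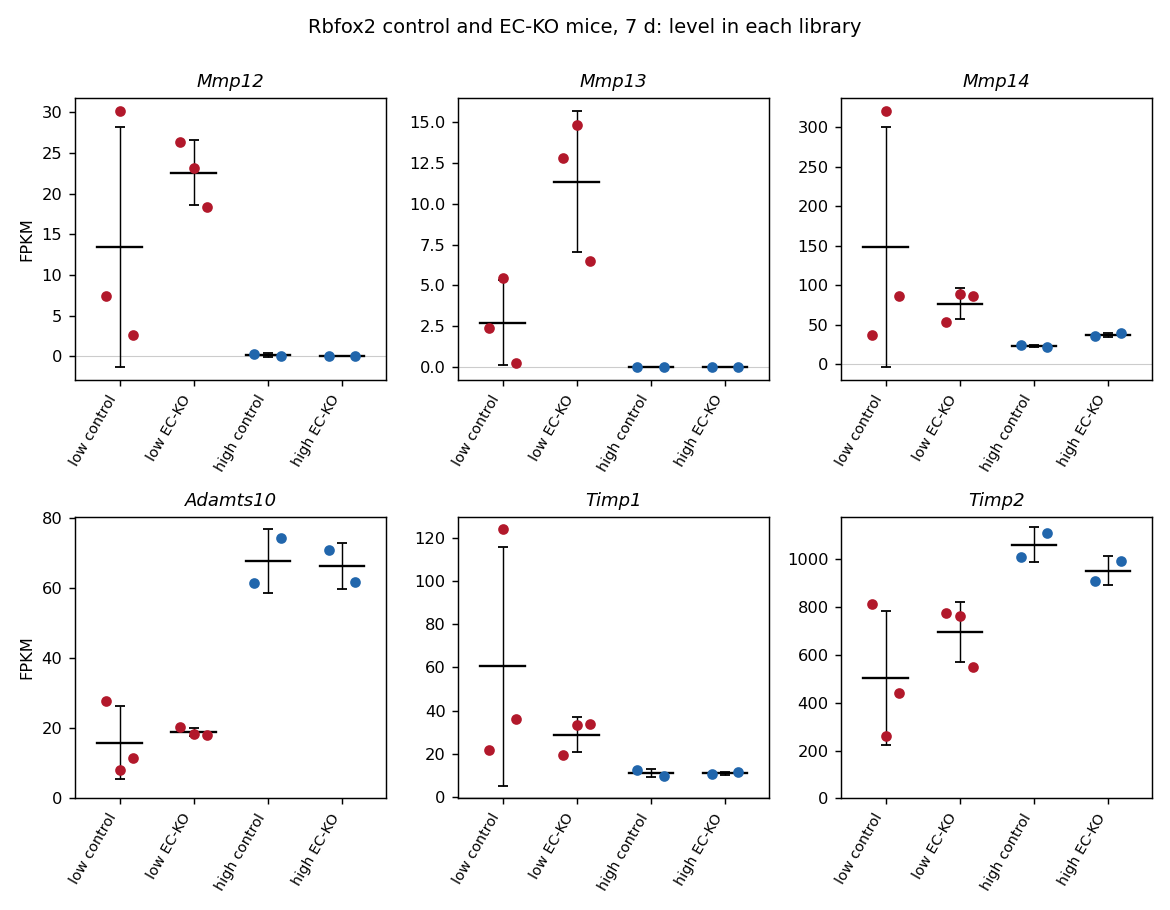
FPKM (linear axes) of 6 members in each library at 7 days, by flow state and genotype, with a line at the mean and a bar of 1 SD (n = 3 at low flow, 2 at high flow). Mmp12 and Mmp13 are higher at low flow in both genotypes, Adamts10 is lower, and control low-flow library b has the highest Mmp12 (30.2 FPKM), Mmp14 (321) and Timp1 (124) of all libraries.

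Control low-flow library b stood apart in several members at 7 days, although across all genes library a was the one farthest from the others. Library b had 25.6 FPKM of Mmp9 against 0.685 and 0.744 in the other control low-flow libraries, 31.7 FPKM of Adamts4 against 0.273 and 1.78, 321 FPKM of Mmp14 against 36.7 and 86.4, and 124 FPKM of Timp1 against 21.7 and 36. Its neutrophil list (0.0343% of counts, the others 0.00122% and 0.00236%) and its macrophage list (0.17%, the others 0.0345% and 0.0353%) were also the highest of the controls. In library a the endothelial list (1.22% of counts, the others 0.631% and 0.654%) and the fibroblast and adventitia list (0.153%, the others 0.0652% and 0.0517%) were the highest of the low-flow controls. The part of these lists was not tested. Timp2 was lowest in library b, with 260.2 FPKM against 811 and 439. In controls, Timp1 (adjusted p = 0.0752 by edgeR), Mmp14 (0.0781) and Timp2 (0.109) did not pass the test between low and high flow. Without library b no member and 0.392% of all genes were called in controls, with log2 fold changes of 4.98 for Mmp12 and -1.88 for Adamts10 (adjusted p = 0.065 and 0.0526 by edgeR). The count was also 0 without either high-flow library (0.0289% and 0.0216% of all genes), 1 without library c (0.255%) and 8 without library a (29.4%). In EC-KO mice the count was 0 when any 1 library was left out, beside 0.00724% to 0.113% of all genes. The libraries numbered 1 of both low-flow groups carried another date than the high-flow libraries, and without both of them 8 members were called in controls (29.2% of all genes) and 3 in EC-KO mice (8.36% of all genes).

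Between EC-KO and control mice no member differed by edgeR, at low flow (0 of 30, 2 at an unadjusted p under 0.05), at high flow (0 of 30, 0 at an unadjusted p under 0.05) or in the difference between the flow changes (0 of 30, 0 at an unadjusted p under 0.05), and DESeq2 gave 0 members in each. The shares of all genes called by edgeR were 0%, 0.00749% and 0%, those at an unadjusted p under 0.05 were 6.59%, 2.19% and 4.03%, and those by DESeq2 were 0.0763%, 0.205% and 0.141%. The 2 members with an unadjusted p under 0.05 at low flow were Mmp13 (2.41, 5.46 and 0.268 FPKM in controls, 12.8, 14.8 and 6.49 in EC-KO mice, log2 fold change 2.11, SE 0.88, edgeR adjusted p = 0.692) and Mmp9, which was set by control library b (log2 fold change -3.12, SE 1.29, edgeR adjusted p = 0.692). The low-flow libraries of Mmp13 did not overlap between the genotypes, as was the case for 2 of 30 members and 7.91% of all genes tested. Leaving out control low-flow library a gave 3 calls at low flow (Adamts10, Timp2 and Timp4), beside 11.1% of all genes. A difference between genotypes was thus not detected in the fit of all libraries, which does not show that the genotypes were alike.

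Cultured cells were measured as 1 library each and with no test. In sorted aortic endothelial cells after 7 days in culture, Mmp2 had 365 FPKM in control and 276 in EC-KO cells, Mmp14 79.6 and 86.4, Timp2 495 and 463, Timp3 116 and 92.9, and Timp1 30.6 and 28.7. The leukocyte proteases Mmp8 and Mmp9 were listed at 0 in both, and Mmp12 at 0.298 and 0, where the macrophage list was at 0.0308% and 0.000201% of counts. In eGFP+ aortic endothelial cells, cultured for 5 days and sequenced with 100 bp reads, Timp1 had 98.7 FPKM, Timp2 42.9, Timp3 60.8, Mmp2 52.6 and Mmp14 12.2 FPKM. These levels are not compared with those of the other cultures, which had another read length. In the immortalized line the endothelial list was at 0.0295% to 0.0369% of counts, against 0.54% and 0.599% in the control and EC-KO cultures. In this line, 48 hr after addition of 10% plasma, Mmp3 (stromelysin 1) went from 17 to 174 FPKM, and Adamts4 from 0.116 to 0.71. With platelets and macrophages, Mmp12 went from 0 to 4.6 FPKM and Adamts5 from 12.9 to 4.82, and the macrophage list was at 0.0381% of counts against 0.00205% in the untreated line. With plasma, platelets and macrophages together, Timp1 went from 45.1 to 256 FPKM, Mmp19 from 5.49 to 29.3 and Timp2 from 542 to 233, while Mmp14 was at 86.8 and 97. In that culture the macrophage list was at 0.0285% of counts and the neutrophil list at 0.0077%, against 0.00205% and 0% in the untreated line. With all 3 additions, the changes past 2-fold were as follows. Of 23 members compared, 11 changed past 2-fold (47.8%, beside 19.9% of 12418 genes). With plasma alone it was 4 of 22 (18.2% beside 12% of 12463), and with platelets and macrophages 5 of 23 (21.7% beside 10.7%). These folds compare single libraries and not the conditions.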

How the data were processed

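RNA-seq libraries were made from pooled arterial flushes and cultured cells with the Clontech SMARTer low input kit, and the authors deposited 1 table of expected counts per gene, computed with RSEM 1.2.15 from reads that were aligned to mm9 with STAR 2.5.1b according to the submitters' processing notes. The deposited table also gives gene length and effective length in bases. For the 100 bp libraries the sources used here name more than 1 aligner, and the RSEM options listed in the methods name none for strand. Between 5.2% and 19.32% of a library's expected counts were not whole, and they were rounded for the tests. Of 204 value columns, 42 were used, and 162 (RPKM, TPM, other repeat runs and columns that match no label) were not. At 7 days, control low-flow library c and EC-KO low-flow library b are repeat runs. Each is a later sequencing of a library with few counts in its earlier run. For 1 entry of 21675, no usable name or values were given, and it was left out.

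Groups came from the labels. The untreated flow states were fitted in pairs, the 7 treated groups in 1 model and the 4 groups at 7 days in 1 model. Genes were tested with edgeR 4.0.16 (filterByExpr, TMM factors, quasi-likelihood test, R 4.3.3), with Benjamini-Hochberg adjustment over all genes tested and a threshold of 0.05. FPKM were computed from each library's total, with no TMM factor. The procedure was tested on simulated data. With 4064477 to 19035957 counts a library, a gene listed at 0 may have up to 3 counts, which was the floor for folds. Intervals and floors cover counting error only. The members and the lists of genes were chosen with earlier results of these data known. Values per library are given for every member called in at least 1 comparison, where it was first called, with full statistics for the 12 that changed most between untreated low and high flow and did not overlap. Alternatives were DESeq2 1.42.0, RLE factors, no filter, other groupings of samples, a replicate block and leaving out each library; library totals and leaving out the 7 day libraries of another date were added after seeing the data. No replicate pair agreed within sampling noise. A gene of the lists is not reported here.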

Additional observations from a re-analysis of the deposited data

How the results depend on the processing

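For the 61 combinations of member and comparison that were called, 642 alternative fits were made, and 517 kept the call, 125 gave the same direction outside the threshold and none turned the direction. With a mean of 1 CPM required in every group of 2 or 3 libraries, 14 members were kept. With DESeq2 the members called were 9 for anti-GPIba against IgG (26.6% of all genes), 1 for anti-Gr1 against IgG (1.24%) and 5 for clodronate against PBS liposomes (3.65%). They were 2 for anti-GPIba against anti-Gr1 (2.57%), and 8 and 4 for flow at 7 days in control and EC-KO mice (15.9% and 7.20%). With only the 2 groups compared they were 12 for anti-GPIba (34.5%) and 0 for flow at 7 days in controls (0.0234%). With no filter on low counts they were 1 for clodronate (0.552%) and 1 for anti-GPIba against anti-Gr1 (0.456%). Without both low-flow libraries numbered 1, 8 were called for flow at 7 days in controls (29.2%). Leaving out each library in turn gave 11 to 16 members for untreated low against high flow (35.5% to 47.8% of all genes). It gave 7 to 16 for low flow against sham (21.9% to 41.8%) and 0 to 1 for high flow against sham (0% to 0.690%). At 7 days, leaving out a low-flow library gave 0 to 8 for flow in controls (0.255% to 29.4%) and 0 in EC-KO mice (0.0826% to 0.113%). It gave 0 to 3 for EC-KO against control at low flow (0% to 11.1%) and 0 for the difference between flow changes (0% to 0.0528%). Where only 1 library would be left in a group, no count is given here. Over all fits with 1 library left out, the fold change of a called member (not its log2) moved by a factor over 1.5 in 47 of 298. In groups of 2 such a fit leaves 1 library, which is assumed to vary like the other groups. The causes of these changes were not tested. For the untreated set, no paired analysis was possible because its columns carry letters and no replicate number. High flow came from the mice of the low-flow arteries, but the sources used here do not say that a number marks the same mice. Samples with the same number correlated in some pairs of groups and not in others (-0.156 to 0.445 over 21 treated pairs, with 0.377 for PBS and -0.015 for IgG low and high flow, and 0.008 to 0.186 over 6 pairs at 7 days), so the pairing was not taken as established. With the replicate block the calls were 15 for flow after IgG (beside 43.4% of all genes), 13 after PBS liposomes (38.1%), 7 for anti-GPIba (24.7%), 8 for flow at 7 days in control mice (22%, with Adamts4, Mmp13, Mmp14, Timp1, Timp2 and Timp4 added), 4 in EC-KO mice (9.86%, with Adamts4 and Adamts10 added), and 0 for the other treated and 7 day comparisons. The planned fit on the repeat sequencing runs of the untreated pools was not run, as those columns were not used.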
